A study of Mus musculus with 3 samples.

Results

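Cells carrying transcripts of Neurod1, a proneural transcription factor, or of Gal, the precursor of the neuropeptide galanin, were examined in single-cell RNA profiles of 3 mouse brain gliomas. A cell was counted as Neurod1 or galanin positive when it held at least 3 unique molecular identifiers (UMIs, each standing for 1 captured transcript) of the pair added together and fewer than 15 UMIs per 10000 from 6 myeloid genes, C1qa, C1qb, C1qc, Tyrobp, Fcer1g and Ctss. The members were thus selected on their own raw counts of these genes. By this rule 174 of 9286 filtered cells were members, or 1.87%. They were set against cells of the same tumour with 0 UMIs of both genes and the same myeloid limit. Because the rule reads Neurod1, Gal and the 6 myeloid genes, the levels of those genes describe the choice of cells and are given without a test.

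The tumours, numbered 1, 2 and 4 in the labels, share 1 genotype and there is no control group. All grew after electroporation of MADR constructs into mouse brain on postnatal day 1 or 2, and their genotype is given as H3f3a K27M, Pdgfra D842V and Trp53 R270H, which alter histone H3.3, a growth factor receptor and the p53 tumour suppressor. The mice were heterozygous for a membrane tdTomato to EGFP switch reporter at the Rosa26 locus, and GFP-positive cells were sorted before droplet capture. Tumours 1, 2 and 4 were taken at postnatal day 150, 106 and 149, and each gave 1 library, so effects of the animal, its age and the library cannot be told apart from the tumour. The labels do not name the promoter that drives each construct.

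Neurod1 is a basic helix-loop-helix factor that acts downstream of the neurogenins, pairs with E proteins such as Tcf3, Tcf4 and Tcf12, binds the E-box sequence CANNTG and drives the differentiation of neurons and of endocrine cells. Proneural factors switch on Notch ligands, which signal to neighbouring cells through Notch and its effectors of the Hes family, and Id proteins withhold E proteins from proneural partners. Galanin is made from the Gal precursor by prohormone processing, acts on the receptors Galr1, Galr2 and Galr3, and is induced in many neurons after nerve injury. Glioma cells of oligodendrocyte precursor type usually express Olig1, Olig2, Sox10 and Pdgfra.

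Promoter windows of both marker genes and of Btbd17 and Hes6, which are described below, are shown so that the E-boxes in them can be read. Each runs 5′ to 3′ on the gene's own strand, from 250 bases before the start site to 50 bases after it, in the GRCm38.p6 build of the RefSeq annotation, with every CANNTG in capitals. Neurod1 is read from chr2:79456587-79456886, Gal from chr19:3414495-3414794, Btbd17 from chr11:114795843-114796142 and Hes6 from chr1:91413989-91414288, all on the minus strand.
Neurod1: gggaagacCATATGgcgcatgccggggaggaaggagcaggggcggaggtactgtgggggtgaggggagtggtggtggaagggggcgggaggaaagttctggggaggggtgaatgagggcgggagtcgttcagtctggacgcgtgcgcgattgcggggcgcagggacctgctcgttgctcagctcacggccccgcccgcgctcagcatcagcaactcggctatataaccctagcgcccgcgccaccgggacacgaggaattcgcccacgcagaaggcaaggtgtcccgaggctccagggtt
Gal: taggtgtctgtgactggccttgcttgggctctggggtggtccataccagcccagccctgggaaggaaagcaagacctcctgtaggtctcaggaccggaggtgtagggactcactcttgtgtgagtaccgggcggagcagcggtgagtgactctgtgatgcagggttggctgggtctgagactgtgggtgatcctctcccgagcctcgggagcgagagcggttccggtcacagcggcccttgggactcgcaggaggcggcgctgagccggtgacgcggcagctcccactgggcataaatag
Btbd17: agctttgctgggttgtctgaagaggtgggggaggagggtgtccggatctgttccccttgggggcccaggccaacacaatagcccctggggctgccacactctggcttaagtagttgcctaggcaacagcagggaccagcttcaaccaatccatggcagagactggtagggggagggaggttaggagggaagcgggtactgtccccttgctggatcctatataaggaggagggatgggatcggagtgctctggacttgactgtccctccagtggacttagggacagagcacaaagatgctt
Hes6: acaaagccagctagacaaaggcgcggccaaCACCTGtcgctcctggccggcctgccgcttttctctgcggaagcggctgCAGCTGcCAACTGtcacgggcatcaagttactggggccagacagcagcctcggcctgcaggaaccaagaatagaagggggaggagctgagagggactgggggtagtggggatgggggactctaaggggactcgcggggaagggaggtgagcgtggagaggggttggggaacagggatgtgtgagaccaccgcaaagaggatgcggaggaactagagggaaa

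The Neurod1 window held 1 CANNTG, the Gal and Btbd17 windows 0 and this Hes6 window 3. A match to CANNTG on either strand was present in 72.3% of 32851 promoter windows of the same length, so its presence singles out no gene. Of the 6-letter forms, CAGCTG was present in 16.3% of windows, and in Hes6 it lay at position -171 from the start site. RefSeq gives Hes6 a further start site, not shown, whose window held CAGCTG at position -150. CAGATG, searched on both strands, was present in 17.2% of windows and in none of the 4 shown, and it lay at position -174 in the window of Igfbp4, another gene described here. CAGATG and CAGCTG are both special cases of CANNTG. These matches describe letters in a window and are not evidence of binding.

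The libraries held 3386, 1632 and 4624 cell barcodes in tumours 1, 2 and 4, with 47120617, 15231673 and 53551127 UMIs. A minimum of 500 genes and a maximum of 20% mitochondrial UMIs per cell left 3361, 1548 and 4377 cells. The libraries shared 6 barcodes (tumours 1 and 2), 20 (tumours 1 and 4) and 11 (tumours 2 and 4), and 0 of these belonged to members. No cells were taken out as doublets, and the deposited files do not state whether doublets had been removed.

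Neurod1 or galanin positive cells were almost all in tumour 4. They numbered 4 in tumour 1, 5 in tumour 2 and 165 in tumour 4, which was 0.119% of cells (exact Clopper-Pearson 95% interval 0.0324% to 0.304%), 0.323% (0.105% to 0.752%) and 3.77% (3.23% to 4.38%). The mean share was 1.40% ± 2.05 (SD, n = 3), and 94.8% of the members came from tumour 4. The cells with 0 UMIs of both genes numbered 3150, 980 and 3511. Intervals here and below cover counting error only, and with 1 library per tumour no test between tumours was made.

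Neurod1 summed to 0.452, 5.11 and 22.5 CPM (UMIs scaled to a common total) in tumours 1, 2 and 4 over cells under the myeloid limit, and Gal to 1.11, 2.32 and 10.4 CPM. Both sums were highest in tumour 4 and lowest in tumour 1, but members, 3 of them with Neurod1, held 86.8% of the Neurod1 UMIs of tumour 2. In tumour 4 members held 43.0% of all Neurod1 UMIs and 79.0% of all Gal UMIs. The other UMIs lay in cells with 1 or 2 UMIs of the pair or above the myeloid limit. At the threshold, 146 cells of tumour 4 under the myeloid limit had 2 UMIs and were left out, whereas 67 members had 3, 42 had 4 and 21 had 10 or more.

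Free RNA in droplets can place UMIs in cells that do not express a gene, so the myeloid cells of the same tumour serve as a background. After each cell was thinned at random to 2500 UMIs, Neurod1 was seen in 5.53% of cells under the myeloid limit in tumour 4 (median depth before thinning 9494 UMIs), against 3.41% (0.709% to 9.64%) of 88 myeloid cells (9455 UMIs). Those intervals overlapped, and with only 88 myeloid cells this comparison cannot decide whether single Neurod1 UMIs in tumour 4 differ from background. Gal was seen in 1.45% of cells under the limit and in 0 of 88 myeloid cells, which by the limit of 3 counts allows a share of up to 3.41%. Without thinning, 15.7% of cells under the limit and 10.2% of myeloid cells held a Neurod1 UMI, and 1 of the 88 myeloid cells reached 3 UMIs of the pair.

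The markers were partly separate. Of the 165 members in tumour 4, 107 had Neurod1 alone, 21 had Gal alone and 37 had both, and in 9 cells each gene reached 3 UMIs. The highest cell had 11 UMIs of Neurod1 and the highest for galanin had 28 UMIs of Gal. In thinned counts Gal was seen in 0.940% (0.652% to 1.31%) of 3617 cells with 0 Neurod1 UMIs, in 3.61% (2.22% to 5.52%) of 554 cells with 1 or 2 and in 6.78% (2.97% to 12.9%) of 118 cells with 3 or more. Neurod1 was seen in 23.4% (12.3% to 38.0%) of 47 cells with 3 or more Gal UMIs. Its share was 5.83% (2.17% to 12.2%) of 103 cells with 1 or 2 and 5.32% (4.65% to 6.04%) of 4139 cells with 0. In this tumour each marker was thus seen in a larger share of cells with 3 or more UMIs of the other than of cells with 0. The rule reads both genes and all these cells come from 1 library, so no test was made. Cells with 3 or more Neurod1 UMIs were also deeper, with a median of 14772.5 UMIs against 9210 in cells with 0, which thinning equalises.

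**Figure D1:**
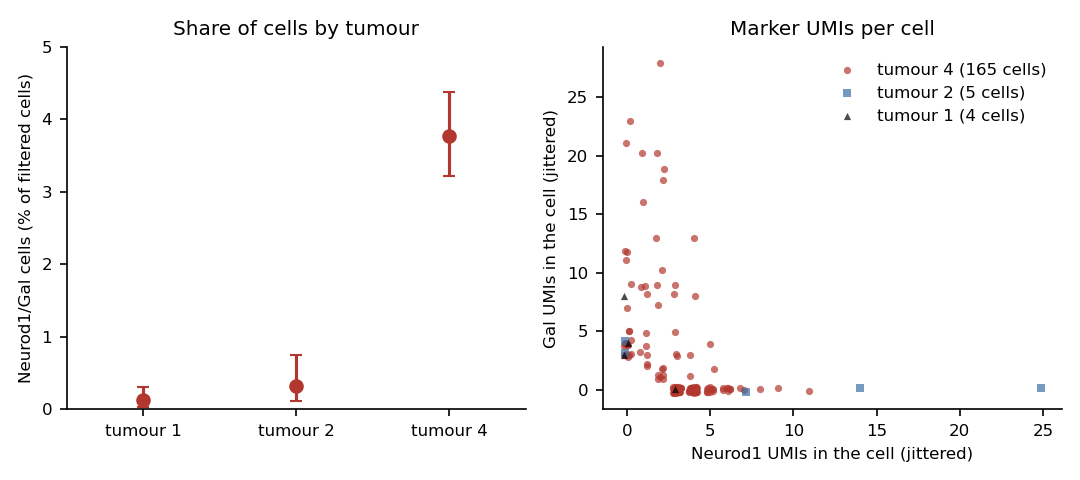
Left, Neurod1 or galanin positive cells as a percentage of filtered cells in each tumour, with exact 95% binomial intervals. Right, UMIs of Neurod1 and Gal in each member, with random jitter; the 165 cells of tumour 4 lie mostly along the axes, and 3 cells of tumour 2 have 25, 14 and 7 Neurod1 UMIs and no Gal.

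In tumour 4, the only tumour with enough members to be summed, members carried more transcript of a small set of proneural, Notch and cell division genes than cells with 0 UMIs, and less myelin transcript. Btbd17, a BTB-domain protein gene, had 281 CPM in members against 35.1 CPM in cells with 0 UMIs. Hes6, a Hes family member that promotes neuronal differentiation, had 158 CPM in members against 32.4 CPM in cells with 0 UMIs. Mbp, which encodes myelin basic protein, had 565 CPM in members and 1594 CPM in cells with 0 UMIs. The oligodendrocyte lineage factor Olig2 was close to level, at 301 CPM in members and 337 CPM in cells with 0 UMIs.

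A gene was counted as past the fold when the level in members was at least 1.5 times higher, or 1.5 times lower, on both of 2 measures. The first was the thinned counts of members against all 3511 cells with 0 UMIs. The second was all UMIs of members against 825 cells with 0 UMIs that were nearest to them in depth (median 13846 UMIs in members, 13838 in matched cells). The filter kept 5969 genes with at least 20 CPM in all UMIs, averaged over members and matched cells. A gene low in 1 class could thus enter through the other. Thrsp, for example, had 60.5 CPM in members and 7.06 CPM in matched cells. Of the 5969 genes, 255 were higher in members, which is 4.27% of genes tested, and 109 were lower, which is 1.83%. Both shares depend in part on this filter. Over all genes tested the median log2 ratio was 0.07. One tumour gives 1 sample per class, so these are sizes with no replicate check and no p-value. The lists of genes below are read against the percentages above.

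The genes furthest above the cells with 0 UMIs include regulators and cell division genes. After Btbd17, at 281 CPM (95% Poisson interval 232 to 337) in members and 35.1 CPM (31.3 to 39.2) in cells with 0 UMIs, came Cplx2, a complexin that controls vesicle fusion, at 109 CPM in members and 14.7 CPM in cells with 0 UMIs. Thrsp, a regulator of lipid synthesis, had 70.3 CPM in members and 8.54 CPM in cells with 0 UMIs, but its thinned UMIs came from 16 of the 165 members. Igfbp4, which binds insulin-like growth factors, had 67.9 CPM in members and 8.54 CPM in cells with 0 UMIs. Hes5, an effector of Notch, had 53.3 CPM in members and 6.15 CPM in cells with 0 UMIs. Id1, which withholds E proteins, had 153 CPM in members and 44.3 CPM in cells with 0 UMIs. Gfap, an astrocyte intermediate filament gene, had 596 CPM in members and 167 CPM in cells with 0 UMIs, and Tox3, an HMG-box gene, 58.2 CPM and 14.7 CPM in the same order. Of 4 astrocyte genes tested, 1, Gfap, was past the fold. The remaining 6 of the 15 with the largest ratios were Hmmr, Fam64a, Mns1, Cks2, C330027C09Rik and Ccnb1. Hmmr, a spindle-associated gene, had 89.7 CPM in members and 18.3 CPM in cells with 0 UMIs, and Ccnb1, the mitotic cyclin B1 gene, 133 CPM in members and 39.9 CPM in cells with 0 UMIs. In all UMIs against matched cells these differences were smaller, with Hmmr at 62.9 CPM in members and 25.9 CPM in matched cells and Ccnb1 at 126 CPM and 69.0 CPM.

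After thinning, a UMI of each of these genes was seen in a minority of members for all but Gfap. Thinning leaves 2500 UMIs per cell, so a cell with 0 thinned UMIs can still hold the transcript. A thinned UMI of Btbd17 was seen in 43.0% (35.4% to 51.0%) of members and 7.58% (6.72% to 8.50%) of cells with 0 UMIs, and in 1 of 88 myeloid cells. Hes6 was seen in 26.7% of members and 7.49% of cells with 0 UMIs, Cplx2 in 19.4% of members and 3.56% of cells with 0 UMIs, and Gfap in 60.0% of members and 26.0% of cells with 0 UMIs. Gfap was also seen in 27.3% of myeloid cells, so its share in cells with 0 UMIs was no higher than this background. Against cells matched in depth, in all UMIs, Btbd17 had 233 CPM in members and 30.1 CPM in matched cells, Hes6 133 CPM and 31.7 CPM, Cplx2 76.1 CPM and 11.1 CPM, and Gfap 524 CPM and 127 CPM. For these 4 genes the intervals of both classes lay apart.

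The 10 genes furthest below were led by stress and myelin genes. Trf, the transferrin gene that oligodendrocytes express strongly, had 38.8 CPM in members and 161 CPM in cells with 0 UMIs. Cnp, a myelin enzyme gene, had 192 CPM in members and 565 CPM in cells with 0 UMIs, and Nkx6-2, an oligodendrocyte homeobox gene, 75.2 CPM and 240 CPM. The heat shock gene Hspa1a had 19.4 CPM in members and 101 CPM in cells with 0 UMIs, but in all UMIs 20.3 CPM in members and 49.0 CPM in matched cells, and it was seen in 4.85% of members and 6.21% of cells with 0 UMIs. This group also holds Mbp, Apod, Kcna6, Hmox1 and Ucn2, and Kcna6 and Ucn2 rested on only 3 and 2 thinned UMIs in members.

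**Figure D2:**
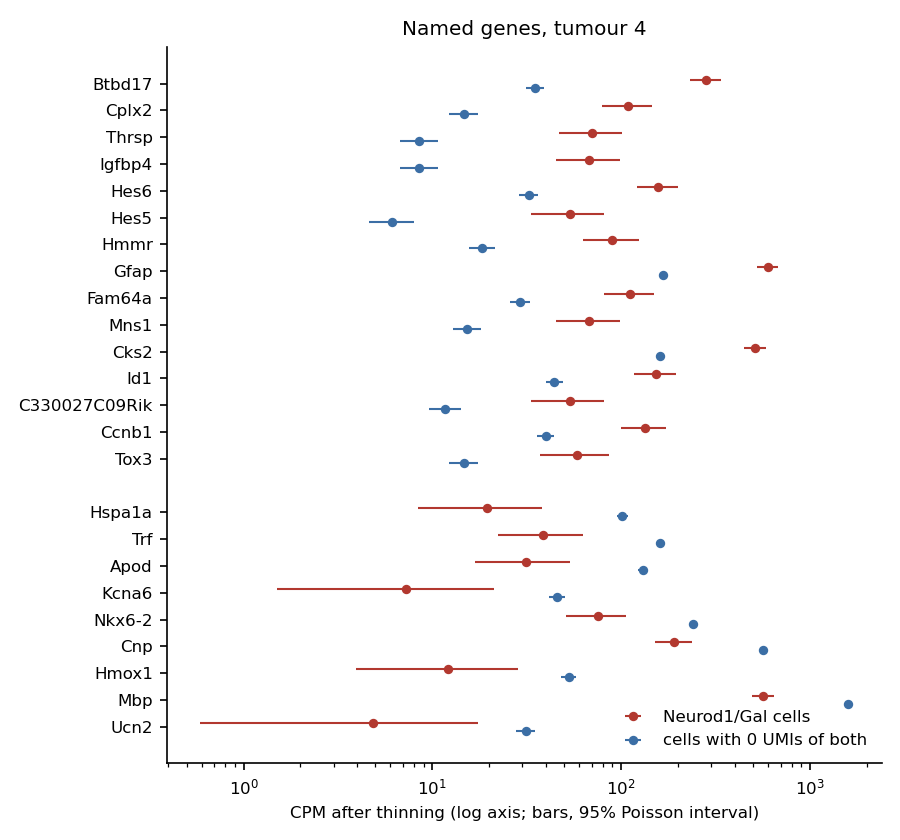
Level in tumour 4 of the 15 genes furthest above and 9 of the 10 furthest below, in CPM after thinning (log axis), in Neurod1 or galanin positive cells (red) and in cells with 0 UMIs of both genes (blue), with 95% Poisson intervals. Btbd17 had 281 CPM in members and 35.1 CPM in cells with 0 UMIs, and Mbp 565 CPM and 1594 CPM.

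The proneural list of 38 genes, like the other lists, was chosen with earlier results of these data known. It had 15 genes with enough signal to test, of which 6 were past the fold upward and 0 downward. They include Btbd17, Hes6, Id1, Id2 and Mfng. Id2, which like Id1 withholds E proteins, had 584 CPM in members and 354 CPM in cells with 0 UMIs. The E protein genes Tcf3, Tcf4 and Tcf12 were not past the fold, at 65.5, 618 and 187 CPM in members and 68.8, 505 and 242 CPM in cells with 0 UMIs. The neurogenin genes Neurog1, Neurog2 and Neurog3, which act upstream of Neurod1, had 0 thinned UMIs in members. Summed over the list, members had 5164 CPM (4947 to 5388) and cells with 0 UMIs 3910 CPM (3869 to 3952).

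Several neuronal and neuroendocrine regulators stood below the level needed for the count and were picked out after their values were seen. Insm1, a zinc-finger factor downstream of proneural genes in neuroendocrine cells, had 49 UMIs in members, or 19.1 CPM (14.2 to 25.3), against 10 UMIs in the depth-matched cells, or 0.785 CPM (0.376 to 1.44). Rbfox3, which encodes the neuronal splicing factor NeuN, had 14.1 CPM in members and 0.785 CPM in matched cells. Myt1l, a neuronal zinc-finger gene, had 14.8 CPM in members and 2.90 CPM in matched cells. Sstr2, a somatostatin receptor gene, had 14 UMIs in members and 0 in matched cells, and Neurod4, a close relative of Neurod1, had 8 and 0. Insm1 was seen, after thinning, in 4.24% of members and 0.228% of cells with 0 UMIs.

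Of 20 Notch pathway genes 10 were tested, 5 of which were past the fold upward and 0 downward, and the list summed to 567 CPM (497 to 645) in members and 349 CPM (337 to 361) in cells with 0 UMIs. The receptor gene Notch1 had 131 CPM in members and 77.7 CPM in cells with 0 UMIs. The ligand genes Dll1 and Dll3 had 48.5 and 26.7 CPM in members, and 21.9 and 11.6 CPM in cells with 0 UMIs. Hes5 and Mfng, which encodes a glycosyltransferase that modifies Notch, completed the 5. Of these 5 only Mfng was also past the fold within both cycling and low-cycling cells. In low-cycling cells Dll3 had 16.0 CPM in members and 14.2 CPM in cells with 0 UMIs, on 1 UMI in members. Hes1, another effector, had 50.9 CPM in members and 26.7 CPM in cells with 0 UMIs, but in matched cells its ratio stayed under 1.5, at 34.7 CPM in members and 23.9 CPM in matched cells.

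Cell division genes made up the largest list past the fold. Of 45 measured cycling genes 38 were tested, with 25 past the fold upward and 0 downward, and the list summed to 4291 CPM (4093 to 4496) in members and 1922 CPM (1893 to 1952) in cells with 0 UMIs. Both replication and mitosis were represented: Tyms, a thymidylate synthase gene, had 89.7 CPM in members and 33.4 CPM in cells with 0 UMIs, and Top2a, a DNA topoisomerase gene, 250 CPM in members and 91.8 CPM in cells with 0 UMIs. Counting a cell as cycling at 5 or more thinned UMIs of the list, 56.4% (48.4% to 64.1%) of members were cycling against 29.1% (27.6% to 30.6%) of cells with 0 UMIs and 33.0% of cells matched in depth. The share was 32.1% in cells with 1 UMI of the markers, 39.7% in those with 2, and 13.6% in myeloid cells. Without thinning, 92.1% of members and 68.7% of cells with 0 UMIs reached the mark. Tumours 1 and 2 had 1 of 4 and 3 of 5 members cycling, too few to compare.

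**Figure D3:**
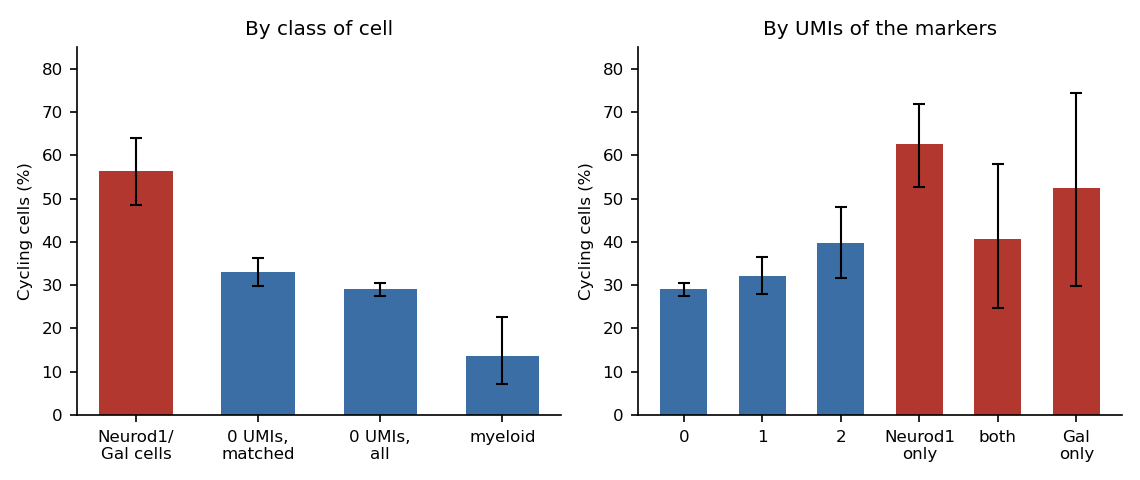
Percentage of cells in tumour 4 with at least 5 UMIs of the cycling list after thinning, by class of cell (left) and by UMIs of the markers (right), with exact 95% binomial intervals. Members were at 56.4% and cells with 0 UMIs at 29.1%.

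To set the cell cycle aside, members were compared with cells of like state. Of 93 cycling members and 1020 cycling cells with 0 UMIs, Btbd17 had 241 CPM in members and 29.4 CPM in cells with 0 UMIs, and Hes6 120 CPM and 31.4 CPM. Of 5969 genes tested, 255 higher (4.27%) and 109 lower (1.83%) were past the fold in the whole comparison. Of these, 58 higher and 42 lower were also past it both in cycling cells and in low-cycling cells, those with fewer than 2 cycling UMIs. Both states are subsets of the same members, so these counts are not independent of the whole comparison. Low-cycling cells numbered 25 members and 1381 cells with 0 UMIs, so values there can rest on few UMIs. How many genes would pass in both states by counting error was not tested. Those higher in both states, named here after their values were seen, include Btbd17, Cplx2, Igfbp4, Hes6, Gfap, Id1, Mfng, the nuclear factor I genes Nfib and Nfix, the synaptic vesicle gene Syp, the zinc-finger gene Bcl11b and Rcor2, a corepressor gene. Nfib had 145 CPM in members and 49.1 CPM in cells with 0 UMIs, and Syp 46.1 CPM in members and 17.5 CPM in cells with 0 UMIs. Those lower in both states include Mbp, Cnp, Trf, Mag, Myrf, Gpr17 and Bcas1, of which Gpr17 had 0 thinned UMIs in the low-cycling members.

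Oligodendrocyte precursor genes were mostly near the level of the other cells, and myelin genes were lower in members. Of 13 precursor genes tested, 1 (C1ql1) was past the fold upward and 2 (Bcan and Gpr17) downward. Sox10 had 206 CPM in members and 272 CPM in cells with 0 UMIs, Pdgfra 82.4 CPM and 83.3 CPM, and Olig1 1389 CPM and 1671 CPM. Of 10 oligodendrocyte genes tested 9 were past the fold downward and 0 upward. The other, Opalin, had 221 CPM in members and 359 CPM in cells with 0 UMIs. It was past 1.5-fold downward in thinned counts but not on both measures. The oligodendrocyte list summed to 1750 CPM (1625 to 1883) in members and 4498 CPM (4454 to 4543) in cells with 0 UMIs. Levels summed over cells cannot tell fewer myelin-expressing cells from less myelin transcript in each cell, and per cell the list had a median of 13.8 UMIs per 10000 in members and 28.7 in cells with 0 UMIs.

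The early neuron list summed to 4364 CPM in members and 4094 CPM in cells with 0 UMIs, and the mature neuron list to 373 CPM and 316 CPM. The granule neuron lineage list stood at 109 CPM (79.6 to 146) in members and 69.3 CPM (63.9 to 75.0) in cells with 0 UMIs, and in all UMIs at 100.0 CPM (88.1 to 113) in members and 58.3 CPM (54.2 to 62.7) in matched cells. Of its 10 genes 1 was tested, Prox1, and 0 were past the fold. Of 18 early neuron genes tested 1 was past the fold upward (Nsg2, at 119 CPM in members and 64.4 CPM in cells with 0 UMIs) and 1 downward (Stmn2, at 162 CPM in members and 259 CPM in cells with 0 UMIs). Tubb3, a neuronal tubulin gene, had 492 CPM in members and 377 CPM in cells with 0 UMIs. Of 7 mature neuron genes 1, Syp, was past the fold. No gene of the GABAergic, glutamatergic, ependymal, T cell, endothelial, mural or erythroid lists had enough signal to be tested. After thinning Olig1 was seen in 88.5% of members, 93.1% of cells with 0 UMIs and 60.2% of the 88 myeloid cells, and Olig2 in 50.3% of members, 51.6% of cells with 0 UMIs and 21.6% of myeloid cells.

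The galanin receptor genes Galr1 and Galr2 had 0 UMIs in members and, after thinning, in cells with 0 UMIs of both markers; over all 4289 cells of tumour 4 under the myeloid limit Galr1 had 0 UMIs, which by the limit of 3 counts allows up to 0.0587 CPM, and Galr2 had 1. Galr3 was not analysed here. Of 8 granin and prohormone processing genes tested 0 were past the fold. Scg5, which chaperones the convertase Pcsk2, had 72.7 CPM in members and 45.5 CPM in cells with 0 UMIs. Its ratio was past 1.5-fold in thinned counts but not on both measures. Pcsk2 itself had 0 thinned UMIs in members. Of the other neuropeptide genes, 2 were tested and Npy was past the fold downward, at 21.8 CPM in members and 41.8 CPM in cells with 0 UMIs. Of 14 axon injury and regeneration genes tested only Gadd45a, a DNA damage gene, was past the fold upward, with 128 CPM in members and 58.9 CPM in cells with 0 UMIs.

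Immune signals were uneven. Of 22 interferon response genes and 11 genes of MHC class I, 0 were past the fold. The MHC class II genes Cd74, H2-Aa, H2-Ab1 and H2-Eb1, chosen after their values were seen, were past the fold upward in both cell cycle states. Cd74, the invariant chain gene, had 165 CPM in members and 81.7 CPM in cells with 0 UMIs, and H2-Ab1 182 CPM and 92.2 CPM. The microglia and macrophage list, which includes Cd74, summed to 201 CPM in members and 121 CPM in cells with 0 UMIs, and per cell ranged from 0 to 49.0 UMIs per 10000 in members and from 0 to 34.4 in cells with 0 UMIs. Of its defining genes, C1qa had 4.85 CPM in members and 7.18 CPM in cells with 0 UMIs, C1qc 4.85 CPM and 4.56 CPM, and 2 of its 12 genes had 0 UMIs in members. The rule itself limits 6 of these genes, and the part of myeloid RNA in the MHC class II levels was not tested.

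The engineered genes were level. WPRE, the transgene element, had 924 CPM in members and 893 CPM in cells with 0 UMIs and was seen in 83.6% of members, 83.0% of cells with 0 UMIs and 58.0% of myeloid cells. H3f3a had 1479 CPM in members and 1306 CPM in cells with 0 UMIs, and Trp53 119 CPM and 95.1 CPM. The 3′ counts do not separate the altered alleles from the mouse's own. Of 16 mesenchymal and matrix genes 4 were past the fold downward, among them S100a6, Lgals1 and Lgals3, with Lgals1, a galectin gene, at 1823 CPM in members and 2811 CPM in cells with 0 UMIs.

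**Figure D4:**
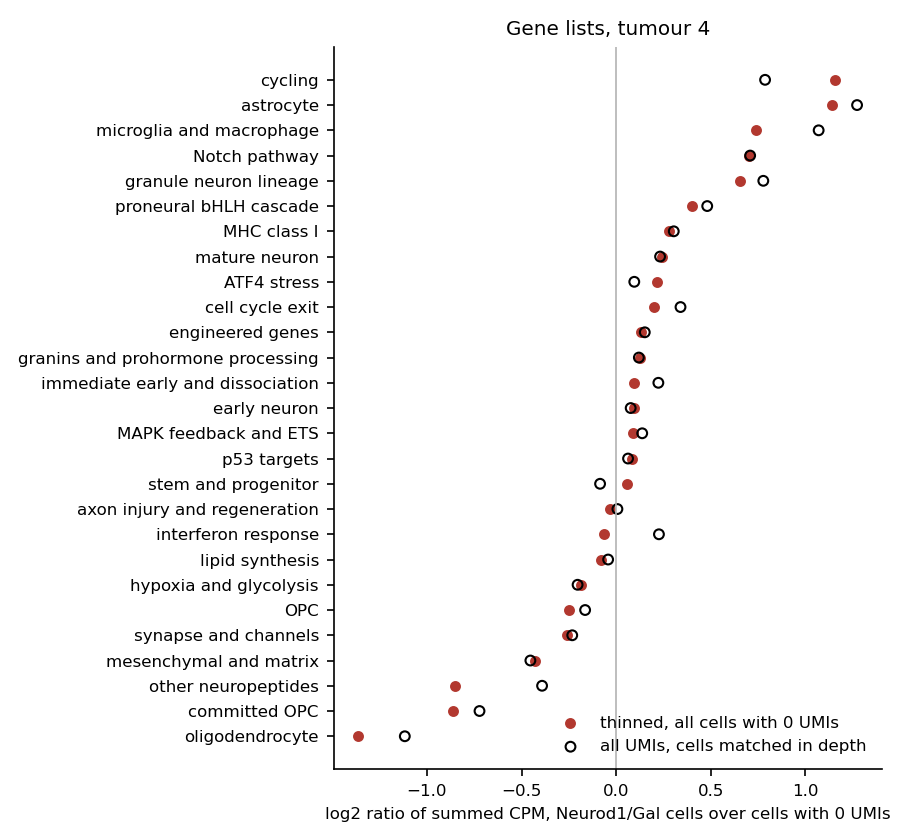
Log2 ratio of summed CPM, Neurod1 or galanin positive cells over cells with 0 UMIs of both genes, for each gene list in tumour 4, from thinned counts (red) and from all UMIs against cells matched in depth (open). Cycling genes summed to 4291 CPM in members and 1922 CPM in cells with 0 UMIs, and oligodendrocyte genes to 1750 CPM and 4498 CPM.

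Levels of Btbd17, Hes6, Gfap and Mbp rose or fell in order over classes of marker UMIs, including cells that the rule left out. Btbd17 was at 35.1, 98.5, 178, 264 and 314 CPM in cells with 0, 1, 2, 3 or 4, and 5 or more UMIs of the pair. Hes6 was at 32.4, 49.7, 101, 143 and 186 CPM, and Gfap at 167, 363, 430, 569 and 650 CPM, over the same classes. Mbp was at 1594, 1018, 614, 613 and 471 CPM. The cycling list had no such order at the top, with 1922, 2053, 2671, 4565 and 3757 CPM. Median depths before thinning were 9189, 10292, 11147.5, 14268 and 13717 UMIs over these classes, the deepest being the cells with 3 or 4. Between 3 or 4 UMIs and 5 or more, the intervals of Btbd17, Hes6, Gfap and Mbp overlapped. Those of Btbd17 were 207 to 333 and 228 to 422 CPM. The classes are cut on the count that the rule reads, and single Neurod1 UMIs could not be told from background. Graded expression within cells was therefore not tested.

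**Figure D5:**
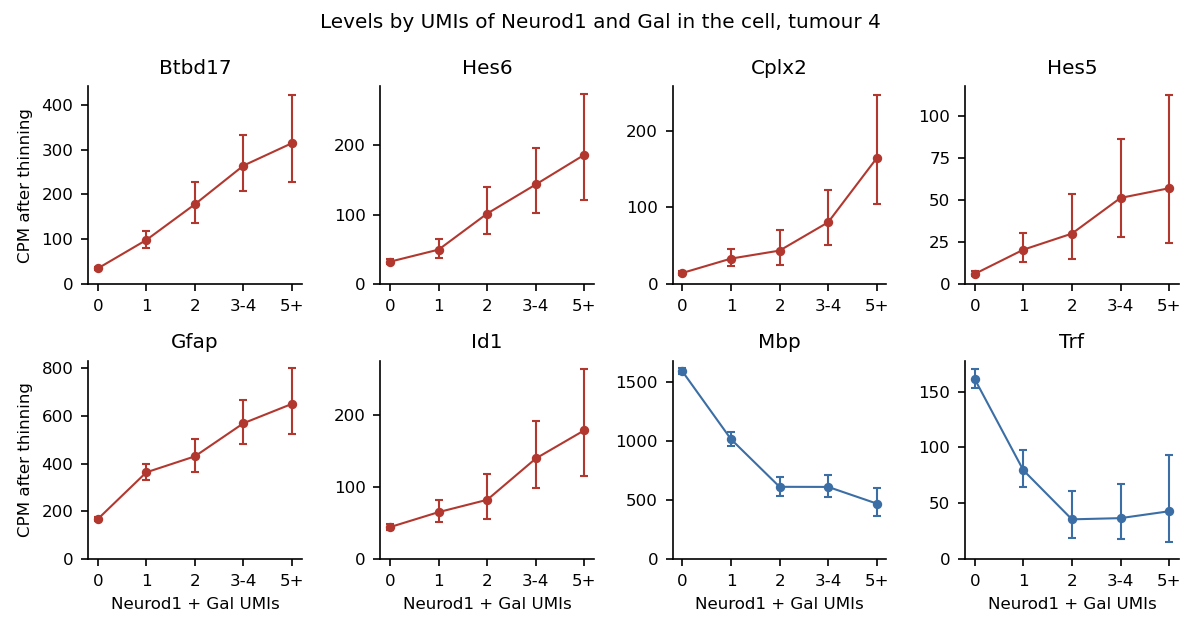
CPM after thinning of 8 genes in cells of tumour 4 with 0, 1, 2, 3 or 4, and 5 or more UMIs of Neurod1 and Gal, with 95% Poisson intervals. Btbd17 ran over 35.1, 98.5, 178, 264 and 314 CPM, and Mbp over 1594, 1018, 614, 613 and 471 CPM.

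In all UMIs both Btbd17 and Hes6 were lower with Gal alone than with Neurod1 alone, and in thinned counts the intervals overlapped. Thinned Btbd17 had 236 CPM (181 to 301) with Neurod1 alone, 411 CPM (291 to 564) with both and 286 CPM (160 to 471) with Gal alone. In all UMIs it had 237 CPM (214 to 262) with Neurod1 alone, 272 CPM (232 to 317) with both and 141 CPM (103 to 188) with Gal alone. In all UMIs Hes6 had 149 CPM (131 to 169) with Neurod1 alone, 130 CPM (103 to 163) with both and 58.1 CPM (35.0 to 90.8) with Gal alone. The last interval lay apart from the other two, on 19 UMIs from 21 cells, but thinned Hes6 had 168 CPM (123 to 225) with Neurod1 alone and 57.1 CPM (11.8 to 167) with Gal alone. Insm1 had 19.5 CPM with Neurod1 alone, 25.3 CPM with both and 6.12 CPM with Gal alone, the last from 2 UMIs. The cycling list summed to 4946 CPM with Neurod1 alone, 2551 CPM with both and 4019 CPM with Gal alone, and 62.6%, 40.5% and 52.4% of cells were cycling. In all UMIs the list summed to 4744, 2784 and 2747 CPM in the same classes. The proneural list was at 5297 CPM with Neurod1 alone and 4476 CPM with Gal alone, a log2 difference of 0.24, and these cells come from 1 tumour, so no test was made.

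Members were more frequent among the nearest cells of members than among all cells, but most of those nearest cells were not members. With the 8 genes of the rule left out, 13.5% of a member's 15 nearest cells, in 30 principal components, were members, against 5.71% for cells with 1 or 2 UMIs and 2.41% for cells with 0 UMIs, where members are 3.85% of all. With the cycling list left out as well, the shares were 14.1%, 5.87% and 2.39%. Of the 165 members 46 had no member among their neighbours, so they were scattered as well as grouped.

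Tumours 1 and 2 had few members, which are given here cell by cell. In tumour 2 the 3 Neurod1 members held 25, 14 and 7 Neurod1 UMIs, the first and second being above the highest in tumour 4, 11. The p53 target list in these cells stood at 281, 454 and 276 UMIs per 10000, against a median of 11.3 and a highest value of 244 in the 980 cells with 0 UMIs. Cdkn1a, the cell cycle inhibitor p21, had 232, 72 and 176 UMIs and Mdm2, the p53 ubiquitin ligase, 97, 29 and 45 in the same cells. Olig2, Btbd17 and Insm1 had 0 UMIs in all 3. The oligodendrocyte list was at 102, 44.6 and 170 UMIs per 10000, against a median of 227 in cells with 0 UMIs, and the microglia list at 16.0, 12.2 and 18.5 against a median of 7.55.

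The 2 Gal members of tumour 2 had 4 and 3 Gal UMIs and stood at 188 and 210 UMIs per 10000 for the axon injury list, where cells with 0 UMIs had a median of 36.1 and 14 of 980 reached the lower of these values. Their mitochondrial shares were 15.8% and 11.8%. In tumour 1, 3 members had 8, 4 and 3 Gal UMIs and 0 of Neurod1, and the Neurod1 member had 3 UMIs. That Neurod1 member held 2 UMIs of Btbd17, 6 of Hes6, 1 of Insm1 and 9 of Olig2, and its cycling list was at 78.4 UMIs per 10000, against a median of 13.2 in cells with 0 UMIs. Of the 3 Gal members of tumour 1, 2 had 0 UMIs of Btbd17 and 1 had 1 UMI. These are values of single cells, and nothing is read across tumours from them.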

How the data were processed

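The authors deposited raw whole-number counts of UMIs per gene and barcode for each tumour, which were used here, and a normalised table, which was not. Per the labels' protocols, libraries were droplet-based 3′ (10x Genomics, version 2 chemistry). The submitters' processing notes name STAR 2.5.1, Cell Ranger 1.3.0 and mm10. How barcodes were chosen is not given in the sources used. The members and gene lists were chosen with earlier results of these data known.

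A planned test of summed counts over tumours needed at least 2 tumours with 10 or more cells in each class. Only tumour 4 qualified, so the test was not run and levels are given without p-values. The rule of 1.5-fold on 2 measures, the filter of 20 CPM and the 15 higher and 10 lower named genes (largest log2 ratio with a pseudocount of 10 CPM) were set after values had been seen. Counts were thinned to 2500 UMIs per cell, summed and scaled to CPM in Python 3.11.15 with numpy 2.4.6 and scipy 1.17.1, and the script was tested on simulated data. Intervals are exact Poisson for levels and Clopper-Pearson for shares, at 95%. Positions and promoter sequences are from RefSeq, GRCm38.p6. A few genes are not reported here.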

Additional observations from a re-analysis of the deposited data

How the results depend on the processing

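The number of genes past the fold changed with the settings. The main setting called 255 genes higher (4.27%) and 109 lower (1.83%) of 5969 tested. With no filter on genes it was 1382 higher (8.07%) and 2402 lower (14.0%) of 17127. Thinned counts alone gave 740 higher (12.4%) and 512 lower of 5969. That alternative was chosen after seeing the data, as was the comparison within cycling cells. A threshold of 2 UMIs gave 162 higher and 69 lower. The number of genes tested can differ between settings, so counts without a share do not compare directly. The lower count became 218 with 5 UMIs, 180 without the deepest 5% of cells, where doublets would be enriched, and 287 in low-cycling cells. Median-ratio scaling gave 198 higher (3.39%) and 160 lower (2.74%) of 5845 genes tested, a more even split. The cause of these moves was not tested. Within low-cycling cells, 6 named genes had log2 ratios below 0, Hmmr at -0.041, Fam64a at -0.43, Mns1 at -0.46, Cks2 at -0.62, C330027C09Rik at -0.20 and Ccnb1 at -0.27 (the subset was selected on few UMIs of the cycling list, which holds Hmmr and Ccnb1). On both measures together, 16 of the 25 named genes were past 1.5-fold in low-cycling cells, where Hes5, Hspa1a, Nkx6-2 and those 6 were not. In cycling cells it was 21, without Thrsp, Fam64a, Ccnb1 and Apod. It was 24 with 5 UMIs (without Ccnb1), 23 with 2 UMIs (without Hspa1a and Hmox1) and 23 under a myelin limit (Apod among those lost). All 25 were past the fold with median-ratio scaling, a stricter or no filter on cells, and without the deepest 5% of cells. With no filter on genes their values stay the same by construction. The 25 were chosen for large ratios in mostly the same cells, so these counts are not independent support. The log2 difference in the proneural list between Neurod1-only and Gal-only cells was 0.50 in low-cycling cells, against 0.24. Only 25 members were low-cycling, so the first value rests on few cells and no change with cell cycle state is read from it.

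The share of members in tumour 4 was 7.11% with 2 UMIs, 1.28% with 5 UMIs and 0.503% with 3 UMIs after thinning, and in tumour 1 it was 0.0298% with 5 UMIs and 0% after thinning. Leaving out each tumour in turn gave mean shares from 0.221% (without tumour 4) to 2.05%. The cycling share of members was 39.4% at 10 UMIs of the list and 92.1% with no thinning. No paired analysis was possible because only tumour 4 had 10 or more cells in both classes; DESeq2, the fit without a block and leaving out tumours for gene counts were not run for the same reason. Thinning to 2500 UMIs leaves 412500 UMIs in members, which limits the precision of genes near 20 CPM.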
